A study of Mus musculus with 4 samples.

Results

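The genes described here encode cadherins, protocadherins, the related Celsr and Fat receptors and the catenins that bind cadherins inside the cell, measured in mouse hippocampus. They were taken by symbol from the deposited comparison of ATO with control: numbered Cdh genes, all Pcdh genes, Celsr1 to Celsr3, Fat1 to Fat4 and genes whose symbol starts with Ctnna, Ctnnb or Ctnnd. Cdh5 and Ctnnb1 were left out by that rule. It found 94 genes among 15713, and 52 of the 94 lie in the 3 protocadherin clusters. The hippocampus came from C57BL/6 mice, an inbred strain, at 11 to 12 weeks of age. The 2 control libraries are from untreated mice, and the 2 ATO libraries are from mice with developmental exposure to ATO at 5000 ppb. The labels do not spell out ATO, but the series title names arsenic-exposed offspring. Nothing in the labels says how many animals stand behind a library, and a p-value here is set only by how far these libraries spread, which may be technical.

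Cadherins are membrane proteins that bind one another between cells in the presence of calcium. Classical cadherins hold adherens junctions and synapses together, and their tails bind beta-catenin and p120-type catenins, while alpha-catenins link the complex to actin. Clustered protocadherins are made from arrays of alternative promoters, so that single neurons show different combinations on their surface and recognise their own branches. Celsr and Fat proteins are very large cadherins of planar cell polarity and tissue growth control, and Celsr3 is known for the growth of axon tracts in the forebrain.

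Depth was similar in the 4 libraries, at 14832214 to 17251032 counts. Each of the 15713 genes in the table had over 1 CPM, its count scaled to a common library total, in at least 2 libraries. In all 4 libraries 92 of the 94 genes were above that level. Cdh3 was the only one not above it in both controls; it entered the table through the ATO libraries and so had to differ. A further 12 protein-coding genes that fit the rule in the annotation are not analysed here. Markers of hippocampal neurons were present in all libraries, with summed levels of 504 to 758 CPM for 7 CA1 markers and 453 to 654 CPM for 8 dentate granule markers. The groups differed on markers of the choroid plexus, which produces cerebrospinal fluid: 15 of 15 rose in ATO, with a median log2 fold change of 4.47, and none was at 0 in any library. Tmem72, Slc4a5, Cldn2, Kcne2, Aqp1, Otx2, Kcnj13 and Folr1 were not above 1 CPM in either control. Like Cdh3, they entered the table through the ATO libraries and so had to differ, and the median includes them. The other choroid plexus markers, above 1 CPM in both controls, rose by log2 2.02 (Slc13a4) to 5.97 (Ttr). In such tissue samples, a different number of cells of a type, for whatever reason, and a different amount of RNA per cell cannot be told apart.

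Of the 94 genes, 1 passed as higher in ATO, Cdh3, which had to differ to be in the table, and 1 fell, Celsr3. This is 2.13% of the genes, against 3.73% of all genes tested that passed the threshold, an adjusted p under 0.05 in edgeR's quasi-likelihood test over all genes. By direction the background was 2.87% higher and 0.859% lower, against 1.06% each way here. The median log2 fold change was -0.06 over the 94 genes and 0.00 over all genes. The absolute log2 fold change was below 0.3, a ratio of 1.23, for 80.9% of the 94 genes and for 77.8% of all genes. An unadjusted p under 0.05 was reached by 2 genes on the higher side (background 10.6%) and 10 on the lower side (background 7.55%). The ATO libraries lay above both controls for 12 of the 94 genes (background 24.8%) and below both for 24 (background 23.4%).

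**Figure D1:**
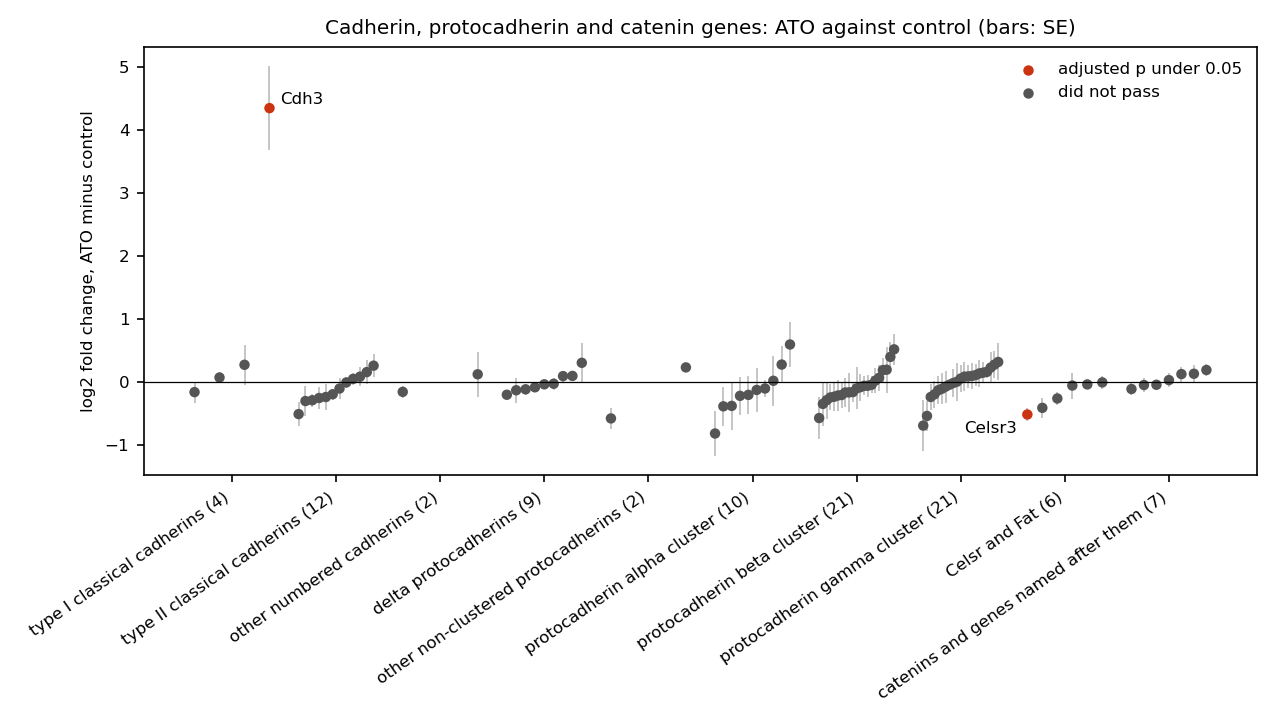
Log2 fold change of ATO over control (vertical axis) for each of the 94 genes, grouped by role with the number of genes in brackets; bars are the SE, and red points passed an adjusted p under 0.05. Cdh3 stands at 4.35 and Celsr3 at -0.52, and all other genes lie between -0.82 and 0.59.

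Type I classical cadherins had 4 genes in the table. Cdh3 (ENSMUSG00000061048, chromosome 8 from 106510891 to 106557297, plus strand, GRCm38) encodes P-cadherin, a cadherin of epithelia. It had 3 counts in control replicate 1, 0 in control replicate 2, and 36 and 39 in ATO replicates 1 and 2. In normalised CPM, which is counts divided by the library size after TMM scaling, these are 0.203, 0.00, 2.07 and 2.35. Both ATO libraries were thus well above both controls, at a CPM far below that of Cdh2 and Cdh4 and similar to that of Cdh15. The ratio of ATO to control after division by depth was 22.03, with an exact binomial 95% interval from 7.25 to 109 that covers counting error only. Because Cdh3 entered the table through its ATO libraries, this interval and its adjusted p of 0.00158 describe a gene that had to differ and are no independent test. Its size rested on few control counts: leaving out control replicate 2 gave a log2 fold change of 3.39, against 4.35 with all libraries. Without control replicate 1 no control count remained. Setting 3 counts for the control library left, an assumed value, gives an 11.1-fold difference. That figure allows for counting error only and is likewise no independent test. The authors' deposited table gave Cdh3 a log2 fold change of 3.52 and marked it as differentially expressed, the only one of the 94 genes it marked. Choroid plexus markers rose in the same libraries by log2 2.02 to 6.53 (15 of 15), and their summed level was 146 and 214 CPM in the controls and 3326 and 4165 CPM in ATO. The markers named above as not above 1 CPM in either control, Slc4a5 at 6.53 among them, had to differ, as did Cdh3. Those above 1 CPM in both controls rose by log2 2.02 to 5.97. Markers of ependymal cells, which line the ventricles, rose for 6 of 8, with a median of 1.21 and a summed level of 18.7 and 21.9 CPM in control and 51.0 and 36.2 CPM in ATO. Dynlrb2, counted among the 6, had 0.271 and 0.530 CPM in control. It entered the table through its ATO libraries and so had to differ. The part of choroid plexus and ependymal cells in the Cdh3 rise was not tested.

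The other type I cadherins did not pass. Cdh2, which encodes N-cadherin of synapses and neural progenitors, had 95.03 and 109 normalised CPM in control and 102 and 112 in ATO. The groups overlapped, and the log2 fold change was 0.07 ± 0.09 (SE, n = 2 per group). Cdh4, which encodes R-cadherin, was at 9.90 and 11.6 CPM in control and 9.36 and 9.81 in ATO (log2 -0.17 ± 0.17). Cdh15, which encodes M-cadherin of muscle, was near 2 CPM throughout, between 1.899 and 2.81.

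**Figure D2:**
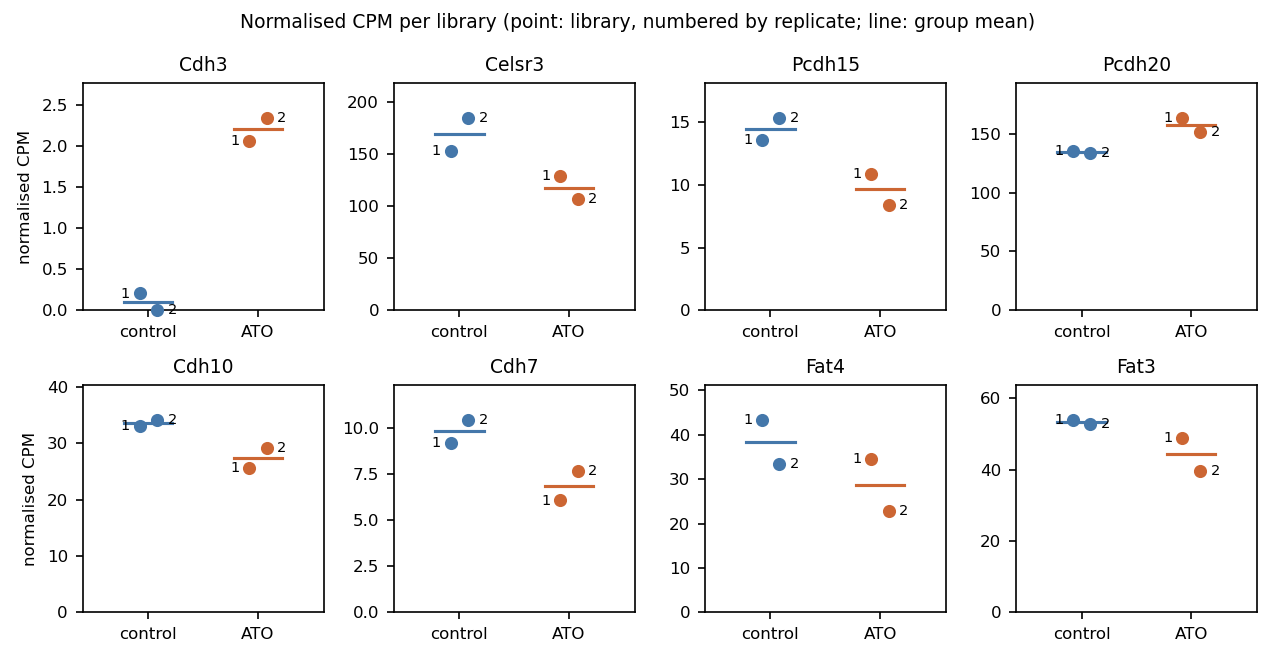
Normalised CPM (vertical axis, from 0) in each library of 8 genes, the smallest p-values outside the protocadherin clusters; points are libraries numbered by replicate and lines are group means. The libraries of the 2 groups do not overlap except for Fat4, where ATO replicate 1 at 34.6 lies above control replicate 2 at 33.5.

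Type II classical cadherins, which mark sets of neurons and their connections, had 12 genes in the table, and 0 of them passed. With edgeR 3 had an unadjusted p under 0.05, all lower in ATO, against 7.55% of all genes on the lower side and 18.1% either way. The median log2 fold change was -0.15. Cdh10 had 33.1 and 34.2 normalised CPM in control and 25.7 and 29.2 in ATO. Both ATO libraries were below both controls, by log2 -0.30 ± 0.11 (adjusted p = 0.155). Cdh7 was at 9.23 and 10.5 CPM in control and at 6.09 and 7.71 in ATO, again without overlap (-0.52 ± 0.19, adjusted p = 0.164). Cdh11, a cadherin of mesenchyme that neurons also express, had 76.6 and 85.2 CPM in control against 69.0 and 71.9 in ATO (-0.20 ± 0.08, adjusted p = 0.225, and -0.12 without control replicate 2). It was the most abundant type II gene in CPM, while per length Cdh9 was highest, as given below. Cdh9, known for the synapses that dentate mossy fibres make in CA3, was level between the groups: 46.7 and 45.0 CPM in control and 44.9 and 45.99 in ATO, a log2 fold change of -0.01 ± 0.09. Cdh8 (0.05 ± 0.09) and Cdh24 (0.08 ± 0.16) had libraries of both groups intermingled. For Cdh20 the controls stood apart from each other, at 12.0 and 18.2 CPM, with ATO at 12.7 and 12.5 between them (-0.26 ± 0.18). The remaining 5 genes, Cdh6, Cdh12, Cdh18, Cdh19 and Cdh22, had log2 fold changes from -0.31 to 0.26.

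Of the cadherins outside these types, Cdh13 and Cdh23 were in the table. Cdh13 encodes T-cadherin, which is held to the membrane by a lipid anchor instead of a tail that binds catenins. It had 43.5 and 45.6 normalised CPM in control and 38.7 and 40.9 in ATO, and the groups did not overlap (log2 -0.16 ± 0.09, adjusted p = 0.390). Cdh23, which forms the tip link of inner ear hair cells together with Pcdh15, was between 1.505 and 2.41 CPM, with the groups overlapping.

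Delta protocadherins are single genes with their own cytoplasmic tails. The 9 in the table had a median log2 fold change of -0.04, 0 passed, and Pcdh10 had an unadjusted p under 0.05. Pcdh10, a protocadherin that helps remove synapses, was at 87.5 and 86.4 normalised CPM in control and at 71.9 and 78.8 in ATO. The ATO libraries were both lower, by log2 -0.21 ± 0.08 (adjusted p = 0.190). Pcdh7 (-0.12 ± 0.09) and Pcdh19 (-0.09 ± 0.08), an X-linked gene known from epilepsy, also had both ATO libraries below both controls. Pcdh1 was the most abundant of the 94 genes in control, with 319 and 346 CPM, and it had 325 and 321 CPM in ATO. Its groups overlapped, and its log2 fold change was -0.04 ± 0.08. Pcdh8, known as arcadlin and induced by neuronal activity, did not pass either, with 78.1 and 87.5 CPM in control and 89.6 and 87.0 in ATO (0.09 ± 0.08). Pcdh9, Pcdh11x, Pcdh17 and Pcdh18 overlapped between the groups, with log2 fold changes from -0.14 to 0.30.

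The other protocadherins outside the clusters, Pcdh15 and Pcdh20, had the smallest p-values after Cdh3 and Celsr3 and went in opposite directions. Pcdh15, the other tip link gene, which oligodendrocyte precursors also express, had 13.6 and 15.4 normalised CPM in control and 10.8 and 8.43 in ATO. Both ATO libraries were below both controls, by log2 -0.58 ± 0.17, and the adjusted p of 0.0695 missed the threshold. It passed without ATO replicate 1 (log2 -0.78, adjusted p = 0.0234) and moved to an adjusted p of 0.351 without ATO replicate 2. Of 5 markers of oligodendrocyte precursors, 1 rose and 1 fell, with a summed level of 247 and 216 CPM in control and 223 and 229 in ATO; their part in the Pcdh15 values was not tested. Pcdh20 had 136 and 134 CPM in control and 164 and 152 in ATO. Both ATO libraries were higher, by log2 0.23 ± 0.08 (adjusted p = 0.121).

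The 52 clustered protocadherins of the table lie on the plus strand of chromosome 18, in 3 arrays in a row: 10 alpha genes, 21 beta genes and 21 gamma genes. Alpha and gamma genes each have a large variable exon of their own and share the last exons of their array, which encode the common cytoplasmic part, whereas each beta gene is complete in itself. In the GENCODE annotation an alpha gene had 2139 to 3028 exon bases that no other gene of its strand shares, and 2860 to 3198 that it does share. A gamma gene had 1570 to 4614 of its own and 2116 to 3157 shared. The lowest count of a gamma gene was 12, in a library in which the gamma genes summed to 3511, so reads of the shared exons had not been added to every gene. How else those reads were counted is not known, and reads of shared exons given to a single gene would raise its level and its share below. The deposited FPKM values divided by the whole exon length (ratio of implied to annotated length 1.00 in the median), shared part included. For this reason levels are given here as normalised CPM per kilobase of a gene's own exon, that is, exon bases not shared on the same strand.

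On that scale the genes at the far ends of the alpha and gamma arrays were the highest. Pcdhac2, the last alpha gene, which serotonergic axons need to spread evenly, had 5.56 and 6.52 normalised CPM per kilobase in control and 5.33 and 5.88 in ATO. The 8 alpha genes of the alternate type, Pcdha2 to Pcdha12, averaged 0.607 to 1.42 over the 4 libraries, and Pcdhac1 0.718. Pcdhgc5, the last gamma gene, whose protein binds GABA receptors, had 14.3 and 14.8 in control and 14.05 and 14.09 in ATO. Pcdhgc3 followed with an average of 8.32, while Pcdhgc4, known for keeping interneurons alive, had 1.73. The gamma A genes averaged 1.29 (Pcdhga1) to 3.69 (Pcdhga3), and the gamma B genes 0.508 (Pcdhgb8) to 3.71 (Pcdhgb6). In the beta array Pcdhb9 was highest at 3.99 and Pcdhb21 lowest at 0.473, with Pcdhb17 (3.39), Pcdhb20 (2.83) and Pcdhb7 (2.28) next to Pcdhb9.

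**Figure D3:**
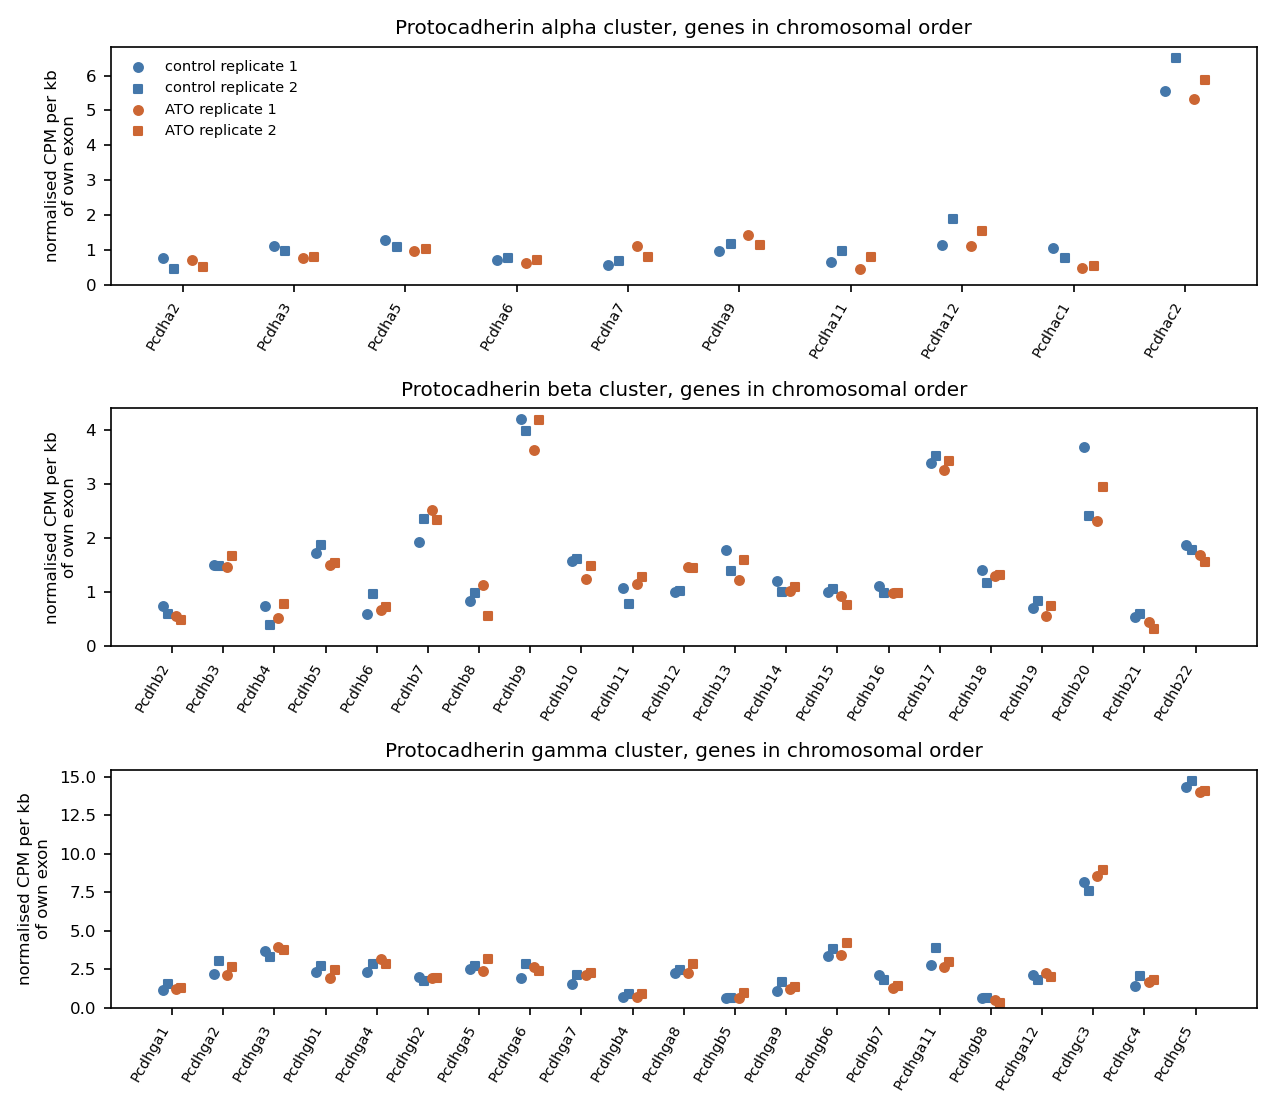
Normalised CPM per kilobase of own exon (vertical axes, from 0) of the 52 clustered protocadherin genes in each of the 4 libraries, in chromosomal order within the alpha, beta and gamma arrays; blue is control, orange ATO, circles replicate 1 and squares replicate 2. Pcdhac2 and Pcdhgc5 at the ends of their arrays are highest in every library, and control and ATO points follow the same profile along each array.

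None of the 52 clustered genes passed in edgeR's test. An unadjusted p under 0.05 was reached by 2, both lower in ATO, against 7.55% of all genes on the lower side and 18.1% either way. Pcdhac1, next to last in the alpha array, had 2.71 and 1.99 normalised CPM in control and 1.26 and 1.38 in ATO. Its counts were small, 40 and 30 against 22 and 23, but the groups did not overlap (log2 -0.82 ± 0.35, adjusted p = 0.230). Pcdhgb7 had 5.56 and 4.57 CPM in control and 3.33 and 3.61 in ATO (-0.54 ± 0.24, adjusted p = 0.254). On the higher side, Pcdhb12 had 3.05 and 3.11 CPM in control and 4.42 and 4.39 in ATO (0.51 ± 0.25, adjusted p = 0.298), with 1927 of its 3034 exon bases overlapped by Gm37446 on the opposite strand. Pcdhb21 was at 2.31 and 2.52 CPM in control and 1.89 and 1.32 in ATO (-0.58 ± 0.34, adjusted p = 0.397). By array, the median log2 fold change was -0.17 for alpha, -0.11 for beta and 0.05 for gamma. Above 0 were 3 of 10, 6 of 21 and 12 of 21 genes, against 7701 of 15713 over all genes.

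Summed over its genes, the alpha array had 36.8 and 41.0 normalised CPM in control and 34.6 and 36.8 in ATO. The beta array had 134 and 126 against 121 and 128, and the gamma array 196 and 211 against 199.7 and 211. For beta and gamma the libraries of the 2 groups overlapped, and for alpha ATO replicate 2 lay just below control replicate 1. The share of alpha counts from Pcdhac2 was 45.7% in control replicate 1 (exact binomial 95% interval 41.4 to 49.97) and 48.1% in control replicate 2 (44.1 to 52.2). In ATO it was 46.6% (42.6 to 50.7) and 48.4% (44.4 to 52.5). Pcdhgc5 took 33.6% (31.9 to 35.4) and 32.1% (30.5 to 33.8) of gamma counts in control and 32.4% (30.8 to 34.0) and 30.7% (29.2 to 32.3) in ATO. Each ATO interval overlapped those of both controls; these intervals cover counting error only.

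Celsr and Fat genes numbered 6, and all 6 had a log2 fold change below 0, as did 51.0% of all genes. The values ran from -0.52 to -0.01, some of them close to level, with a median of -0.16. Celsr3 (ENSMUSG00000023473, chromosome 9 from 108826320 to 108852969, plus strand, GRCm38) was the gene that fell. It had 2253 and 2790 counts in control and 2238 and 1772 in ATO, or 153 and 185 normalised CPM against 128 and 107. Both ATO libraries were below both controls, and each group's own libraries also differed. The means were 169 ± 22.6 in control and 118 ± 15.4 in ATO (SD, n = 2), a log2 fold change of -0.52 ± 0.10 with an adjusted p of 0.0116, and the authors' deposited table gave -0.52 with an adjusted p of 0.0133 and no mark. The call was lost without control replicate 2, where the log2 fold change was -0.38 (adjusted p = 0.121). In the same ATO libraries 3 of 7 CA1 markers fell, with a median of -0.42 and a summed level of 758 and 747 CPM in control and 504 and 676 in ATO. Of 7 interneuron markers 1 fell, with a median of -0.26 and summed levels of 831 and 907 against 727 and 782 CPM. Dentate granule markers went the other way, with 2 of 8 higher at the threshold, a median of 0.29 and summed levels of 540 and 453 against 654 and 551 CPM. Of 7 CA3 and CA2 markers 1 fell, with a median of 0.04 and summed levels of 878 and 949 against 823 and 804 CPM. The part of these neurons in the Celsr3 fall was not tested.

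Celsr2, known for aligning the cilia of ependymal cells together with Celsr3, did not pass. Its levels were 180 and 193 normalised CPM in control and 175 and 187 in ATO, with the groups overlapping (log2 -0.04 ± 0.08). To show the starts of these related genes, of which 1 fell, their RefSeq promoter windows on GRCm38.p6 are printed from 250 bases before to 50 after the start, 5′ to 3′ on the gene's strand, with each CG in capitals. The Celsr3 window is chr9:108825795-108826094 on the plus strand, with its RefSeq start 275 bases before the GENCODE gene start, and the Celsr2 window is chr3:108415530-108415829 on the minus strand.
Celsr3: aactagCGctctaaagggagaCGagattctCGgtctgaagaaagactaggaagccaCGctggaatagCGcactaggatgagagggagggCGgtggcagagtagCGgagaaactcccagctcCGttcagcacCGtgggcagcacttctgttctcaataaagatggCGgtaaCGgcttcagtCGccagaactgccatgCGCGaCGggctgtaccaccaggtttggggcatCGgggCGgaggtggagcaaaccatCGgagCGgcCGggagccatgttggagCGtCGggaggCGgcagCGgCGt
Celsr2: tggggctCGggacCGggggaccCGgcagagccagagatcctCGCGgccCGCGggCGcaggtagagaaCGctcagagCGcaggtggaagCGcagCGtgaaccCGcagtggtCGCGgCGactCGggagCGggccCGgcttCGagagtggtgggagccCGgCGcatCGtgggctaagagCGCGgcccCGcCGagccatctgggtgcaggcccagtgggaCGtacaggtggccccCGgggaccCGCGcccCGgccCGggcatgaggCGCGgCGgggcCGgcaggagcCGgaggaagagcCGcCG
The Celsr3 window holds 25 CG and the Celsr2 window 40, against a median of 7 over 32544 such windows. A count as high occurs in 18.6% of all windows for Celsr3 and in 3.95% for Celsr2. CG reads the same on both strands, and a count of CG is a description of the sequence only.

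Celsr1, which orients epithelial cells, was low, between 5.66 and 6.89 normalised CPM (log2 -0.06 ± 0.21). Fat4, a receptor for the Dachsous cadherins, had 43.3 and 33.5 CPM in control and 34.6 and 22.9 in ATO. The groups overlapped, with ATO replicate 1 between the controls (-0.42 ± 0.16, adjusted p = 0.186). Fat4 passed without ATO replicate 1, at -0.74 (adjusted p = 1.55e-04), and was at -0.15 without ATO replicate 2. Fat3, which shapes the dendrites of retinal amacrine cells, had 54.0 and 52.8 CPM in control and 49.03 and 39.7 in ATO, without overlap (-0.27 ± 0.10, adjusted p = 0.186). Its fold change rested on ATO replicate 2: it was -0.43 without ATO replicate 1 and -0.12 without ATO replicate 2. Fat1 was level, at 30.9 and 32.6 against 32.4 and 30.6 CPM (-0.01 ± 0.10).

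Catenins and genes named after them numbered 7, of which 0 passed and 0 had an unadjusted p under 0.05, against 18.1% of all genes. Ctnna1, the alpha-catenin of epithelia and glia, had 52.0 and 48.8 normalised CPM in control and 52.6 and 62.1 in ATO, so both ATO libraries were above the controls by a small margin (log2 0.19 ± 0.10, adjusted p = 0.337). Without ATO replicate 2 the log2 value was 0.06, and without ATO replicate 1 it was 0.30. Ctnna2, the alpha-catenin of neurons, had 96.5 and 99.99 CPM against 89.3 and 101 (-0.05 ± 0.08). Ctnnd2, the p120-type catenin of neurons found at synapses, had 171 and 183 against 148 and 179, with ATO replicate 1 the lowest (-0.12 ± 0.09). Ctnnd1, which encodes p120-catenin, was at 16.6 and 13.2 CPM in control and 15.9 and 16.6 in ATO. Of its 7319 exon bases 4482 are shared with Gm28635 on the same strand, and how reads in the shared bases were counted is not known. Ctnnal1, a relative of alpha-catenin, Ctnnbip1, an inhibitor of beta-catenin, and Ctnnbl1, a protein of the spliceosome that is no catenin, had log2 fold changes of 0.12, 0.03 and -0.05.

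Per kilobase of own exon, 12 of the 94 genes averaged at least 10 normalised CPM over the 4 libraries and 25 averaged under 1. Outside the clusters Pcdh1 led with 37.3, followed by Pcdh20 with 26.7 and Pcdh8 with 18.8. Ctnnd2 (16.5), Celsr2 (15.9) and Ctnna2 (13.9) came next, and then the neighbours Cdh2 and Cdh9, both at 12.9. Among type II cadherins the level ran from 12.9 for Cdh9 through 8.5004 for Cdh11 and 7.35 for Cdh8 down to 0.834 for Cdh7. The delta protocadherins ended with Pcdh18 (0.626) and Pcdh11x (0.615), and the Celsr and Fat genes with Celsr1 (0.572). The lowest of the catenin group, Ctnnal1, stood at 2.49. The lowest of all were Cdh23 at 0.111 and Cdh3, at 0.0464 and 0.00 in control and 0.471 and 0.536 in ATO. Even in ATO, Cdh3 was thus below the other type I cadherins Cdh2, Cdh4 and Cdh15, which averaged 12.9, 1.40 and 0.692.

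**Figure D4:**
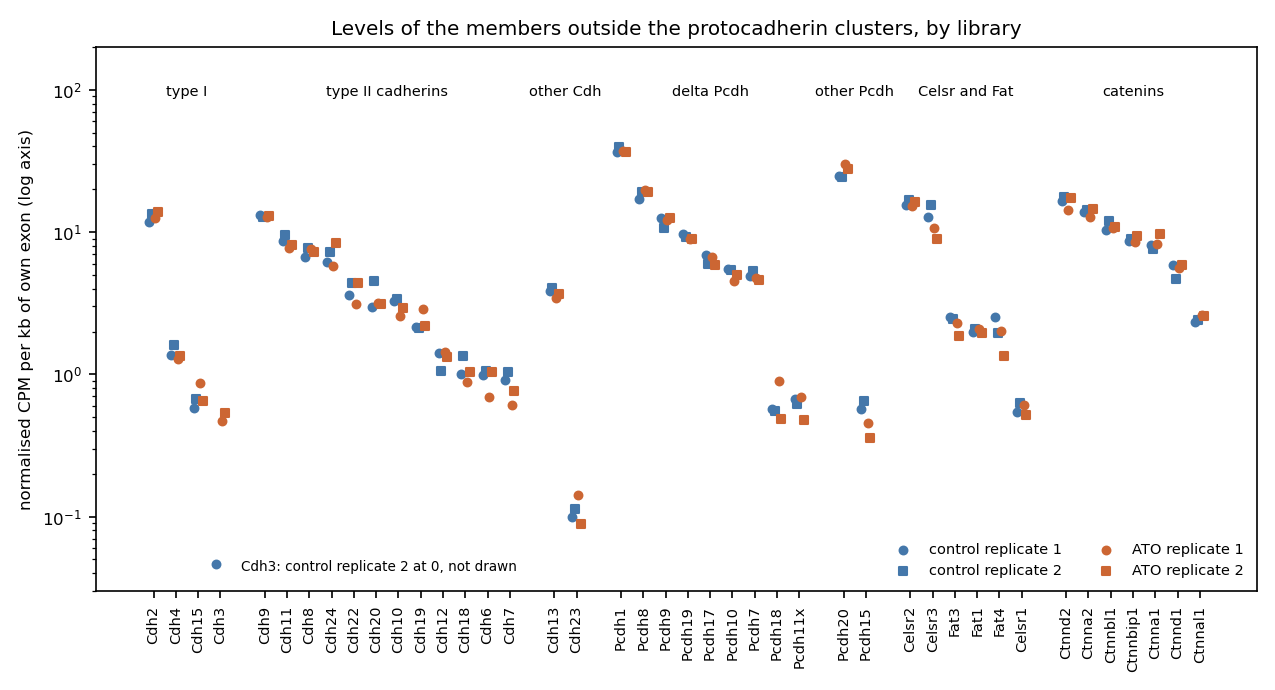
Normalised CPM per kilobase of own exon (vertical log axis) of the 42 genes outside the protocadherin clusters in each of the 4 libraries, by role; blue is control, orange ATO, circles replicate 1 and squares replicate 2. Pcdh1 is highest at an average of 37.3, Cdh23 lies near 0.111, and the groups are visibly apart for Cdh3, whose control replicate 2 at 0 cannot be drawn.

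Genes that work with these proteins were followed as 6 lists, of which 78 genes were in the table: 3 rose, 2 fell and 73 did not pass, against 2.87% higher and 0.859% lower over all genes. Their median log2 fold change was 0.03. Of 20 adherens junction partners, 2 rose and 2 fell, and 8 had an unadjusted p under 0.05, against 3.73% of all genes that passed and 18.1% under that unadjusted p. Plekha7, which ties p120-catenin to microtubules, had 20.1 and 22.6 normalised CPM in control and 12.1 and 14.6 in ATO (log2 -0.68 ± 0.14, adjusted p = 0.0150). Lmo7, which binds afadin and actinin at junctions, had 142 and 135 against 109 and 114 (-0.31 ± 0.08, adjusted p = 0.0373). Ptpn1, a tyrosine phosphatase that acts on cadherin complexes, rose from 43.3 and 45.0 to 55.8 and 61.6 CPM (0.41 ± 0.09, adjusted p = 0.0228), and Tjp1, the junction scaffold ZO-1, from 87.6 and 85.3 to 105.6 and 105.95 CPM (0.29 ± 0.08, adjusted p = 0.0496). None of these 4 genes had overlapping groups.

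Of 9 genes for the cleavage of cadherins and protocadherins, 1 rose, Aph1b of the gamma-secretase complex, from 33.0 and 31.5 to 40.8 and 46.5 CPM (0.44 ± 0.10, adjusted p = 0.0298). Adam10, the main sheddase of N-cadherin, was at 0.12 ± 0.08 and did not pass. None of 17 planar cell polarity and Fat partners passed, Yap1 coming nearest (0.34 ± 0.11, adjusted p = 0.0953). None of 11 regulators of protocadherin promoter choice, such as cohesin and the silencing factor Smchd1, passed (median 0.08, Smc3 at 0.25 ± 0.10). None of 13 genes of protocadherin cytoplasmic signalling passed (median -0.01), nor did any of 8 other cadherin superfamily genes (median 0.03), with the calsyntenin gene Clstn3 at -0.22 ± 0.10. An unadjusted p under 0.05 was reached by 2 of the 9 cleavage genes, by 3, 3, 0 and 1 genes of the other 4 lists in the order given, and by 17 of the 78 genes in all, against 18.1% of all genes. Each of the 5 calls was lost when some single library was left out. The adjusted p was highest without control replicate 2 for Plekha7 (0.122), without ATO replicate 2 for Ptpn1 (0.147) and Aph1b (0.198), and without ATO replicate 1 for Lmo7 (0.266) and Tjp1 (0.230).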

How the data were processed

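RNA was measured in 4 hippocampus libraries, 2 control and 2 ATO. Per the labels' protocols, libraries were made from messenger RNA with an Illumina TruSeq kit. The submitters' processing notes name HISAT2 2.0.1 and HTSeq 0.6.1, beside cutadapt 1.9.1 and FastQC 0.10.1, limma 3.47.15 under R 4.1.0, and build GRCm38. Their settings, such as strand use, are not given here, so genes overlapping on opposite strands can share reads (20 of the 94). Per the file headers the authors deposited counts and FPKM per gene and library, and a log2 fold change, p-value and adjusted p-value.

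Counts of all 15713 genes entered edgeR (version 4.0.16, under R 4.3.3). Its filter on low counts removed 0 genes. TMM scaling was followed by the quasi-likelihood test with no covariate and Benjamini-Hochberg adjustment over all genes; the threshold was 0.05. The SE is the fold change divided by the square root of F. Alternatives were library size only, RLE size factors, DESeq2 1.42.0, limma-voom (limma 3.58.1), a mean of at least 5 CPM, the replicate number as a block, and each library left out. Exon lengths came from GENCODE vM21. The text names genes that passed, up to 4 with the smallest p in each role group or list, and the highest and lowest levels per length; other genes named for their level in an array or their role were chosen after their values were seen. The genes, lists and rules were chosen with earlier results of these data known.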

Additional observations from a re-analysis of the deposited data

How the results depend on the processing

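The counts of calls and the fold changes of 33 genes, 28 of the 94 and 5 pathway genes, were recomputed in 10 other ways, or 9 for genes with a mean below 5 CPM; levels per length, array sums and shares were not. Celsr3 passed in 9 of 10. Cdh3 passed in the 9 that tested it, which is no sign of stability, since it had to differ to be in the table. All genes passed numbered 586; DESeq2's Wald test gave 316, the fit with the replicate block 1366, and leaving out 1 library 222 to 611. Higher among the 94 genes passed 1, but 0 among genes averaging 5 CPM or more, and 2 with the replicate block, which added Pcdh20; leave-one-out fits gave 1 each. Lower passed 1, but 3 with the replicate block, which added Fat4 and Pcdh15; leave-one-out fits gave 0 to 3. Of the pathway genes 5 passed, 8 with the replicate block, 2 in DESeq2 and 0 to 3 with a library left out. The labels do not say that a replicate number pairs libraries. The deviations of same-numbered libraries correlated at 0.09 across genes, a value that cannot decide whether they were paired, and pairing was not tested. Tjp1 was also lost with library size only (adjusted p = 0.0502), RLE factors (0.0503), limma-voom (0.0542) and DESeq2 (0.120), and in DESeq2 Ptpn1 (0.0509) and Aph1b (0.0793). Among the recomputed genes that had not passed, 6 had a log2 fold change of either sign when 1 library was left out: Celsr2 from -0.094 to 0.0062 (above 0 without control replicate 2 or ATO replicate 1), Ctnnd2 from -0.26 to 0.017 (above 0 without ATO replicate 1), Ctnnd1 from -0.036 to 0.31 (below 0 without control replicate 2), Cdh23 from -0.26 to 0.41 (below 0 without ATO replicate 1), Cdh2 from -0.025 to 0.16 (below 0 without control replicate 1 or ATO replicate 2) and Cdh20 from -0.52 to 0.070 (above 0 without control replicate 2). The cause was not tested. Depth limits Cdh3, which rests on 3 control counts.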
